A study of Mus musculus with 12 samples.

Results

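Collagens are the main structural proteins of the extracellular matrix, and 42 collagen genes of the mouse were followed here through the open chromatin around them. They were chosen by gene name as the collagen chains, and each ATAC-seq peak was given to the nearest protein-coding gene whose span lay within 50 kb of the peak's midpoint. In this way 41 of the 42 genes held 683 of the 177160 peaks kept, and Col10a1 had 0 peaks. All 41 genes passed the filter on low counts, as did 18103 of 18105 genes with a peak. ATAC-seq uses the transposase Tn5 to insert sequencing adapters into open DNA, so a count measures accessibility and not transcription.

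The study measured 6 samples of mouse skin cells, from female mice of mixed strain. The wild-type groups were hair follicle (HF, 1 sample) and interfollicular epidermis (IFE, 1 sample). The tumour groups carried floxed p53 on both alleles and a Rosa-YFP reporter on both alleles, among the alleles of the model. A tamoxifen-regulated Cre (CreER) driven by K14, a gene of basal keratinocytes, gave K14 Epcam+ cells (1 sample, labelled as of interfollicular epidermis). The same kind of Cre driven by Lgr5, a gene of hair follicle stem cells, gave Lgr5 Epcam+ cells (2 samples) and Lgr5 Epcam- cells (1 sample), both labelled as of hair follicle. Epcam is an epithelial surface protein. Cells were sorted with antibodies to CD45 (leukocytes), CD31 (endothelium), CD140a (the product of Pdgfra, a fibroblast gene) and Epcam. Nothing in the labels ties the Lgr5 Epcam+ samples to separate animals. The p-values judge differences between groups against the spread within this pair, evened out across genes, and that spread may be only technical.

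Collagen chains fold in triple helices and are sorted by the structure they build. Fibrillar collagens (types I, III, V and XI among others) form the tensile fibrils of the dermis and are made mostly by fibroblasts. Type IV chains form the sheet of the basement membrane, to which keratinocytes attach, type VII forms the anchoring fibrils below it, and type VI forms beaded filaments. FACIT collagens decorate fibrils, multiplexins (types XV and XVIII) sit in basement membrane zones, type VIII forms short-chain networks, and types XIII, XXIII and XXV span the cell membrane.

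The 250 bases before the start site are shown for 4 fibrillar and beaded filament genes. Among collagen genes more accessible in Lgr5 Epcam- than in Lgr5 Epcam+ cells, they had the largest ratios of those with such a sequence available. A peak over each of those start sites was also higher in Lgr5 Epcam- cells. The sequences are from RefSeq on GRCm38.p6 (mm10), 5′ to 3′ on the gene's strand. They lie at chr6:4505368-4505617 on the plus strand for Col1a2, chr3:114030290-114030539 on the plus strand for Col11a1, chr1:45311288-45311537 on the plus strand for Col3a1 and chr10:76623405-76623654 on the minus strand for Col6a2. Capitals mark matches to 6 motifs on either strand. They were the AP-1 motif TGANTCA, the E2 box CAGGTG, the TEAD motif GGAATG, the NF-Y motif CCAAT, the Sp1 motif GGGCGG and the TATA box TATAAA.
Col1a2: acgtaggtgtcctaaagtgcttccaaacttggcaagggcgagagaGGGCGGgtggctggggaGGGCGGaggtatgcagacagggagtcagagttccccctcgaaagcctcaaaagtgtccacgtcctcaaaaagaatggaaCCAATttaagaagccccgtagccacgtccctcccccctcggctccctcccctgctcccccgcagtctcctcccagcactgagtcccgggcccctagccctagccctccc
Col11a1: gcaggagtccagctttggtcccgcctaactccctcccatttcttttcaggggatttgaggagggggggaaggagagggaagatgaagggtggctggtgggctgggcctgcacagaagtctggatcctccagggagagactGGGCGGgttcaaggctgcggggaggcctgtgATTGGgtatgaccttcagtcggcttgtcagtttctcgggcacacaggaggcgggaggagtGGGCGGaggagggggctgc
Col3a1: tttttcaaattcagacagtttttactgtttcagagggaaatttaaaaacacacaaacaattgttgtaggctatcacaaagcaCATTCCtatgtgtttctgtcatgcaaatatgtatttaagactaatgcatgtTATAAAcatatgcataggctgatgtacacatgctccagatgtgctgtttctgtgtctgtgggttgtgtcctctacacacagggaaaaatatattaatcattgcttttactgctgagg
Col6a2: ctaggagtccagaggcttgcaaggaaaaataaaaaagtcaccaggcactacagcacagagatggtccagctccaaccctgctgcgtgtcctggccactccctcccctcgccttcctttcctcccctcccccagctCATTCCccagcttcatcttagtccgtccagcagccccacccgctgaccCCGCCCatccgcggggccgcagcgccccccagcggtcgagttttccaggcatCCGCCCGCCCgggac

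Col1a2 and Col11a1 each hold 1 CCAAT and 2 GGGCGG matches. In Col1a2 the CCAAT begins 109 bases before the start site and the GGGCGG matches 205 and 188 bases before it. In Col11a1 the matches begin 79 bases (CCAAT) and 110 and 19 bases (GGGCGG) before the start. Col3a1 holds 1 GGAATG match at 168 and 1 TATAAA at 117 bases, with no GGGCGG. Col6a2 holds 1 GGAATG match at 115 bases and 3 GGGCGG matches at 67, 15 and 11 bases, the last pair overlapping. The 6 motifs thus do not form 1 arrangement shared by the 4 windows. Among called genes whose windows are not printed, Col5a3 also held 1 CCAAT and 2 GGGCGG matches. Col6a1 held 1 TGANTCA match and no other. Over the 6 called genes with a window, CCAAT was in 3 and GGGCGG in 4.

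A promoter window was found for 33 of the 42 genes. It was not found for Col1a1, Col2a1, Col4a3, Col5a2, Col9a3, Col12a1, Col14a1, Col22a1 and Col26a1. GGGCGG was in 20 of the 33 windows (60.61%) against 35.36% of the 27025 genes with a window. Those 27025 were not limited to protein-coding genes, and a gene with several windows counted when any of them held the motif. CCAAT was in 11 (33.33% against 37.49%). The TEAD motif, the TATA box and the E2 box were in 4 each (12.12%), against 14.36%, 14.33% and 19.43%. TGANTCA was in 1 (3.03% against 7.819%), that of Col6a1. These shares describe letters in the windows and carry no test.

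The question of the Epcam comparison is how collagen chromatin in Epcam- tumour cells differs from that in Epcam+ cells of tumours of the same genotype. In Lgr5 Epcam- cells 8 of 41 collagen genes were more accessible and 0 were less (edgeR quasi-likelihood test, adjusted p under 0.05 over all 18103 genes). Over all genes tested, 2.65% were higher and 3.84% lower. The 8 were 6 fibrillar genes, Col1a2, Col11a1, Col3a1, Col5a2, Col5a3 and Col1a1, and 2 beaded filament genes, Col6a2 and Col6a1. Their fold changes ran from 2.14 to 8.16. The median log2 ratio was 1.27 over the 11 fibrillar genes, 0.94 over the 5 beaded filament genes, 0.28 over the 6 type IV genes and 0.32 over all 41, against -0.12 over all genes tested. Nothing in a bulk library separates more cells of a type from more open chromatin per cell.

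Col1a2 encodes the second chain of type I collagen, the main collagen of dermis, and lies at chr6:4505618-4541543. Its level over 14 peaks, in CPM (counts scaled to library size, summed over the gene's peaks), was 45.5 for HF, 24.3 for IFE, 15.4 for K14 Epcam+, 12.2 and 16.2 for the Lgr5 Epcam+ pair and 115.7 for Lgr5 Epcam-. The Epcam- sample was the highest of the 6, HF came next and the Epcam+ tumour samples were lowest. The log2 ratio of Epcam- to Epcam+ was 3.03 ± 0.29 (SE; n = 1 against 2; edgeR adjusted p = 0.000498).

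Col3a1 and Col5a2, neighbours on chromosome 1 with 24.6 kb between them, encode chains of types III and V, which build fibrils together with type I. Col3a1 had 22.6, 21.5, 17.9, 13.8, 16.02 and 88.4 CPM in HF, IFE, K14 Epcam+, Lgr5 Epcam+ 1, Lgr5 Epcam+ 2 and Lgr5 Epcam-, the order used from here on. The first 5 samples lay between 13.8 and 22.6 CPM and the Epcam- sample far above them. The log2 ratio was 2.57 ± 0.29 (edgeR adjusted p = 0.00141). Col5a2 had 42.2, 20.3, 17.6, 14.01, 18.5 and 75.1 CPM, with a log2 ratio of 2.21 ± 0.30 (edgeR adjusted p = 0.0041). As for Col1a2, HF was second to the Epcam- sample.

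Col11a1 encodes a chain of type XI collagen, best known from cartilage fibrils. It had 10.7, 8.04, 8.001, 4.65, 5.73 and 41.2 CPM over 6 peaks, a log2 ratio of 2.99 ± 0.38 (edgeR adjusted p = 0.00289). The Epcam- value was above that of every other sample. Col5a3 had 16.5, 15.1, 32.3, 20.9, 20.0 and 54.5 CPM, a log2 ratio of 1.41 ± 0.30 (edgeR adjusted p = 0.0171). Here K14 Epcam+ came second. The peaks within a 10 Mb window around Col5a3 were themselves at a median of 0.39, and relative to its window the gene was at 0.97 (edgeR adjusted p = 0.0276).

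Col1a1, the partner chain of Col1a2 in type I collagen, had 59.1, 46.4, 57.0, 56.8, 64.6 and 146.4 CPM. The 5 other samples lay close together and below the Epcam- sample. The log2 ratio was 1.27 ± 0.29 (edgeR adjusted p = 0.0233). The 2 type I chains therefore shared the high Epcam- value, while the Epcam+ tumour samples were below HF for Col1a2 and near it for Col1a1.

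Col6a1 and Col6a2 encode partner chains of type VI collagen and lie 85.2 kb apart on chromosome 10. Col6a2 had 26.1, 15.3, 23.4, 22.4, 25.6 and 94.6 CPM, a log2 ratio of 1.98 ± 0.28 (edgeR adjusted p = 0.00449), and the Epcam- sample was alone at the top. Col6a1 had 80.5, 48.2, 30.4, 43.9, 47.7 and 97.8 CPM, a log2 ratio of 1.10 ± 0.28 (edgeR adjusted p = 0.0389), with HF near the Epcam- sample. That call was lost when scaling factors came from chromosomes 1 to 14 (adjusted p = 0.0587) and when no peak was dropped (adjusted p = 0.0532). Col6a3, the third chain of the classical type VI molecule, was at 0.15 ± 0.30 and not called.

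**Figure D1:**
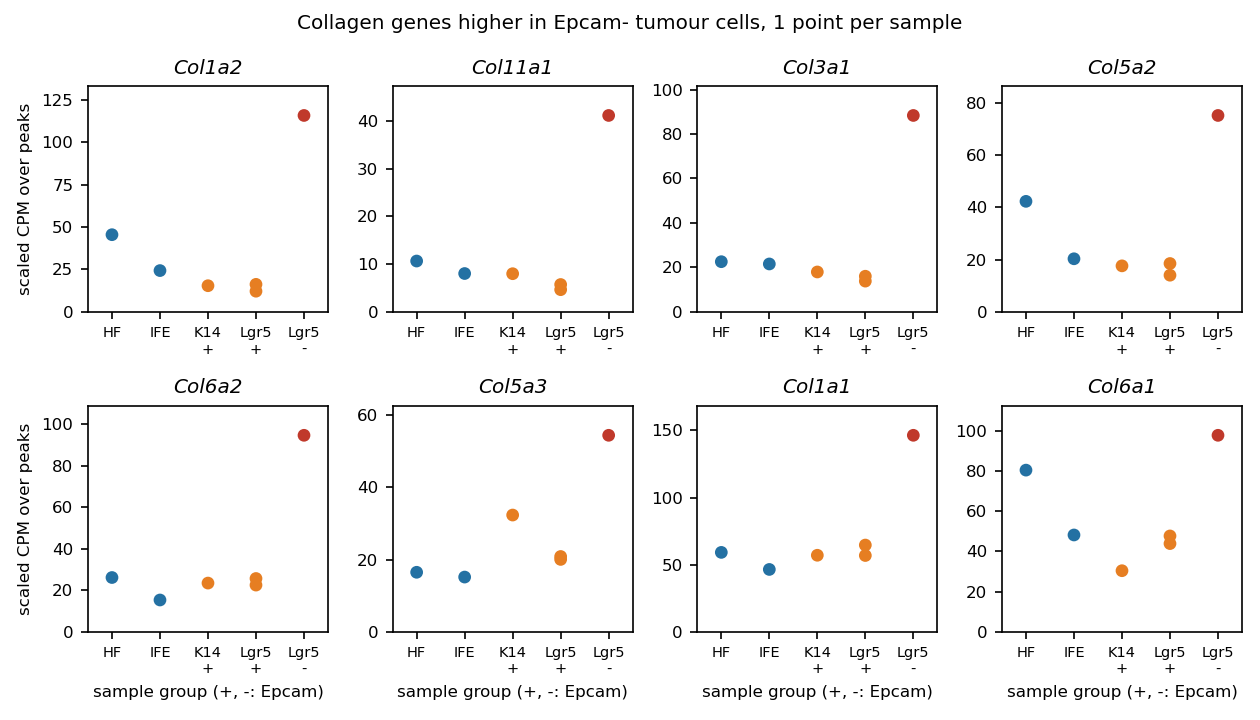
Scaled CPM (linear axis from 0) summed over the peaks of each gene, for the 8 collagen genes called higher in Lgr5 Epcam- cells; 1 point per sample, blue for normal, orange for Epcam+ tumour and red for Epcam- tumour samples. In every panel the Epcam- point is the highest, from 41.2 CPM for Col11a1 to 146.4 CPM for Col1a1.

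Both Lgr5 Epcam+ samples lay near each other for these 8 genes, with log2 ratios of sample 1 to sample 2 from -0.41 to 0.06, against 1.10 to 3.03 for Epcam- to Epcam+. The test that picked these genes rests on the spread of this pair, so their nearness is partly a condition of the call. Over all 41 collagen genes the ratio within the pair ran from -1.75 to 0.93. With either of the pair left out the log2 ratio of Col1a2 was 2.83 or 3.24 and that of Col6a1 1.04 or 1.16. The pair supplies the 1 residual degree of freedom, so the test takes the single samples to be as variable as the pair. Between the 2 samples of the pair, 0 collagen genes were higher and 2 lower by the size rule given below (Col25a1 at -1.75 and Col14a1 at -1.12), against 2.61% and 2.46% of all genes.

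The remaining fibrillar genes did not pass the test. Col24a1 was at 0.77, Col5a1 at 0.60, Col11a2 at 0.16, Col27a1 at 0.08 and Col2a1, the cartilage chain, at -0.25. The basement membrane genes gave 0 calls. Col4a1 and Col4a2, which encode the chains found in nearly all basement membranes and share a bidirectional start region, were at 0.32 ± 0.30 and -0.10 ± 0.31. Col4a3, Col4a4, Col4a5 and Col4a6, chains of specialised basement membranes, were at -0.90, 0.79, 0.60 and 0.23. Col7a1, the anchoring fibril gene that keratinocytes express, was at 0.47 ± 0.30, and Col18a1, the source of endostatin, at -0.66 ± 0.33. The uncalled genes with the lowest ratios were Col25a1 (-1.29 ± 0.60) and Col9a3 (-1.26 ± 0.36, edgeR adjusted p = 0.0581). For Col25a1 the Lgr5 Epcam+ samples differed from each other, at 9.81 and 33.1 CPM, and the Epcam- sample was at 8.78 CPM.

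**Figure D2:**
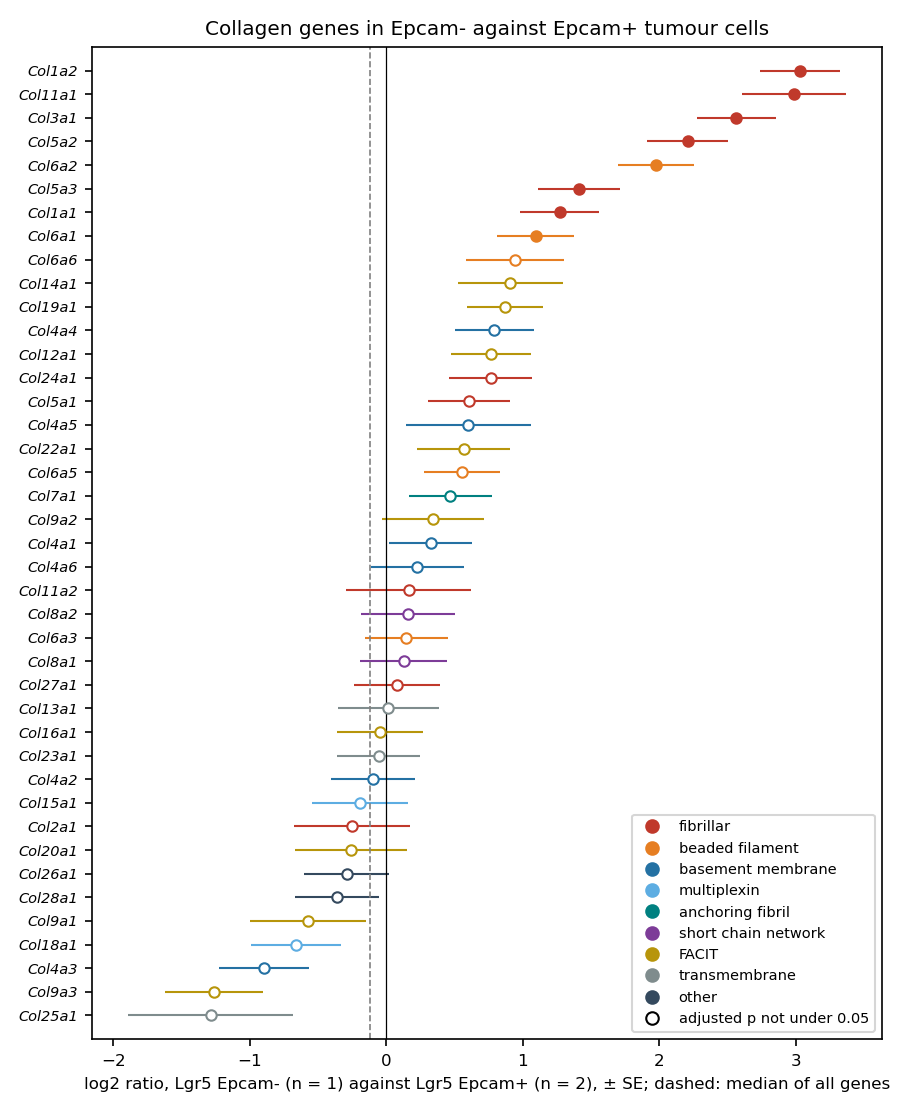
Log2 ratio of Lgr5 Epcam- (n = 1) to Lgr5 Epcam+ (n = 2) for 41 collagen genes, with SE, coloured by collagen class; filled points have an adjusted p under 0.05 and the dashed line is the median of all genes tested (-0.12). The 8 filled points are fibrillar and beaded filament genes at 1.10 to 3.03, and the type IV genes lie between -0.90 and 0.79 with open points.

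At the level of single peaks, of 683 collagen peaks 120 (17.57%) were higher in Epcam- cells and 19 (2.78%) lower, against 7.0% and 6.33% of the 177158 peaks tested. Fibrillar genes held 68 higher and 2 lower of 177 peaks, and beaded filament genes 13 and 0 of 57. Basement membrane genes held 5 higher and 5 lower of 129, and multiplexin genes 4 higher and 7 lower of 71. FACIT genes, of which none was called as a gene, held 19 higher and 1 lower of 114, with 9 of 30 at Col14a1 and 5 of 20 at Col12a1. The short chain network genes held 4 higher and 1 lower of 35, the transmembrane genes 5 and 3 of 56 and Col7a1 1 and 0 of 6, also with no gene called. By place, 66 of 488 peaks inside genes were higher, 45 of 158 in the flanks and 9 of 37 at gene ends. Over all peaks tested the shares higher in those places were 7.10%, 5.22% and 2.81%. Of the collagen peaks 71.45% lay inside a gene and 3.807% over a start site, and of all peaks with a gene 57.08% and 7.436%.

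The share of peaks that were higher differed among the 8 called genes. All 6 peaks of Col11a1 were higher, 13 of 15 at Col3a1, 12 of 14 at Col1a2, 9 of 14 at Col5a2, 6 of 9 at Col6a2, 5 of 8 at Col5a3, 6 of 16 at Col1a1 and 2 of 9 at Col6a1. Their other peaks did not pass the test, and 1 of them, at Col1a1, had a ratio below 0 (-0.69). Many of these peaks lie in the 50 kb beside the gene and not inside it, 8 of 9 at Col6a1 and at Col6a2, 10 of 15 at Col3a1 and 8 of 14 at Col1a2. Col24a1 held 10 higher of 28 peaks although its summed count was not called. The largest ratio among the peaks of above-median level was at a peak 48.2 kb before the start of Col1a2 (chr6:4456951-4457951), outside the gene. It had 2.24, 1.55, 1.46, 0.46, 1.25 and 16.5 CPM, a log2 ratio of 4.28 ± 0.64 (edgeR adjusted p = 0.000449). The first 5 samples were all low there and the Epcam- sample was high.

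**Figure D3:**
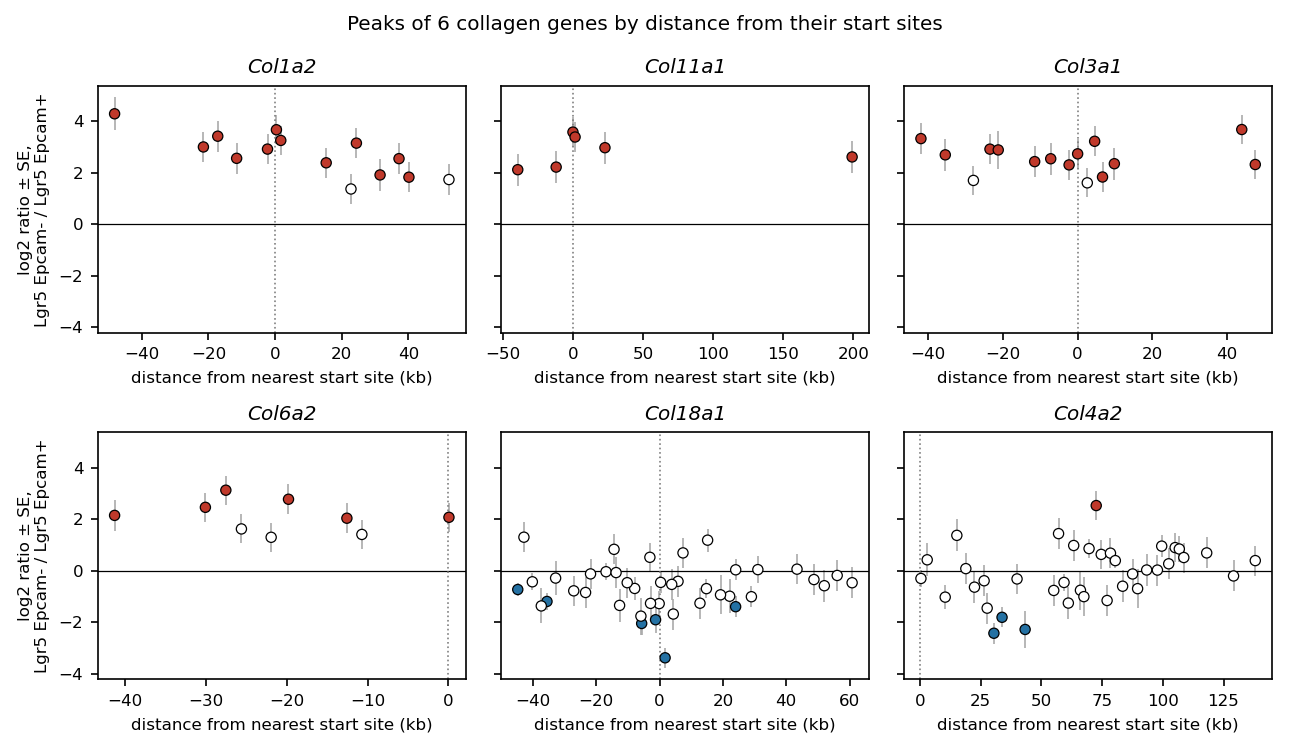
Log2 ratio of Lgr5 Epcam- to Lgr5 Epcam+ (± SE) for each peak of 6 collagen genes against its distance in kb from the nearest start site of the gene; red peaks were called higher, blue peaks lower and white peaks neither. Red peaks are 12 of 14 for Col1a2, 6 of 6 for Col11a1, 13 of 15 for Col3a1 and 6 of 9 for Col6a2, while Col18a1 has 6 blue peaks of 41 and Col4a2 has 1 red and 3 blue of 38.

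Of 26 collagen peaks over a start site, 9 were higher and 0 lower, against 2.47% higher and 3.83% lower of 10884 start-site peaks tested. The peak over the Col1a2 start (chr6:4505432-4506583), which covers most of the sequence printed above, had 9.21, 2.60, 1.53, 1.64, 1.70 and 21.2 CPM and a log2 ratio of 3.66 ± 0.56 (edgeR adjusted p = 0.000347). HF held more signal there than IFE and all 3 Epcam+ tumour samples. The Col11a1 start-site peak (chr3:114030088-114031088) had 2.07, 2.02, 1.92, 0.78, 1.20 and 11.8 CPM, a log2 ratio of 3.57 ± 0.59 (edgeR adjusted p = 0.000726). The start-site peaks of Col3a1 and Col6a2 were at 2.73 and 2.07.

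The other higher start-site peaks were those of Col6a5 (2.90), Col6a3 (2.57), Col6a1 (2.04), Col5a3 (1.78) and Col24a1 (1.62). Thus all 4 beaded filament genes with a start-site peak had it higher in Epcam- cells, and Col6a6 had 0 such peaks. At Col6a3 the start-site peak (chr1:90843411-90844411) rose from 1.11 and 0.94 CPM in the pair to 6.11 CPM, while the sum over its 21 peaks was 112, 132 and 136 CPM. The start-site peaks of Col5a1, Col7a1, Col4a2 and Col16a1, each already above 13 CPM in every Epcam+ tumour sample, were at 0.48, -0.15, -0.30 and -0.12 and were not called.

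Of the 19 peaks lower in Epcam- cells, 2 lay in fibrillar and 0 in beaded filament genes. A peak inside Col18a1, 1.73 kb from a start site, (chr10:77111312-77112636) had 24.5, 29.4, 28.3, 38.9, 24.3 and 3.02 CPM. All 5 Epcam+ or normal samples were high there and the Epcam- sample was low, with a log2 ratio of -3.39 ± 0.39 (edgeR adjusted p = 4.82e-05). A Col4a2 peak (chr8:11342715-11343847) had 33.5, 10.03, 10.996, 17.1, 21.1 and 3.54 CPM and a ratio of -2.43 ± 0.42 (edgeR adjusted p = 0.000914). Lower peaks with low normal and high Epcam+ tumour values were found inside Col23a1 (-3.24), Col27a1 (-2.95) and Col9a3 (-2.67) and in the flank of Col15a1 (-2.81).

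Genes that act on collagen were examined by list. Of 5 lysyl oxidase genes, which crosslink collagen, 2 were higher and 0 lower in Epcam- cells: Lox (2.06 ± 0.54) and Loxl1 (1.53 ± 0.28). Of 10 genes of procollagen export and processing 3 were higher and 0 lower, namely Pcolce (2.30), an enhancer of C-propeptide removal, and the N-propeptidase genes Adamts2 (2.14) and Adamts14 (1.31). Of 18 genes of folding and modification 2 were higher and 0 lower, Plod2 (1.76), a lysyl hydroxylase, and Serpinh1 (1.03), the collagen chaperone HSP47. Of 8 proteoglycans that bind fibrils 4 were higher and 0 lower, Lum (2.0), Ogn (1.94), Aspn (1.55) and Dcn (1.25). Of 9 collagen receptor genes 0 were called in either direction. The medians were 1.53, 0.48, 0.10, 1.20 and -0.03 in that order, beside -0.12 over all genes tested.

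Adamts2 shows the pattern of the called fibrillar genes, with 67.3, 53.6, 57.2, 42.2, 51.6 and 206.9 CPM. The Epcam- value exceeded all others. Lox differed within the pair, with 19.04, 13.2, 23.5, 12.6, 45.9 and 121.9 CPM, and the Epcam- value was again the highest.

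Among the marker lists, only that of fibroblasts and pericytes had genes called higher in Epcam- than in Epcam+ cells. Of 13 fibroblast and pericyte markers that hold no collagen gene, 5 were higher and 0 lower in Epcam- cells: Rgs5 (2.70), Lum (2.0), Pdgfrb (1.89), Mfap5 (1.53) and Dcn (1.25). Lum and Dcn are also in the proteoglycan list. Pdgfra, whose product CD140a was an antibody target of the sort, was at 0.54 and not called, with 72.4 and 69.7 CPM in the pair and 103.2 CPM in the Epcam- sample. The summed level of the 13 markers was 607, 619, 594, 618, 522 and 740 CPM, and 0 of them were at a count of 0 in a sample. Of 13 epithelial markers 0 were higher and 9 lower, including Krt5 (-2.70) and Epcam (-2.33), and their summed level was 763 CPM in the Epcam- sample against 1731 to 2754 in the others. Of 10 endothelial and 10 leukocyte markers 0 were called in each. The part of fibroblasts or pericytes in the collagen result was not tested.

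**Figure D4:**
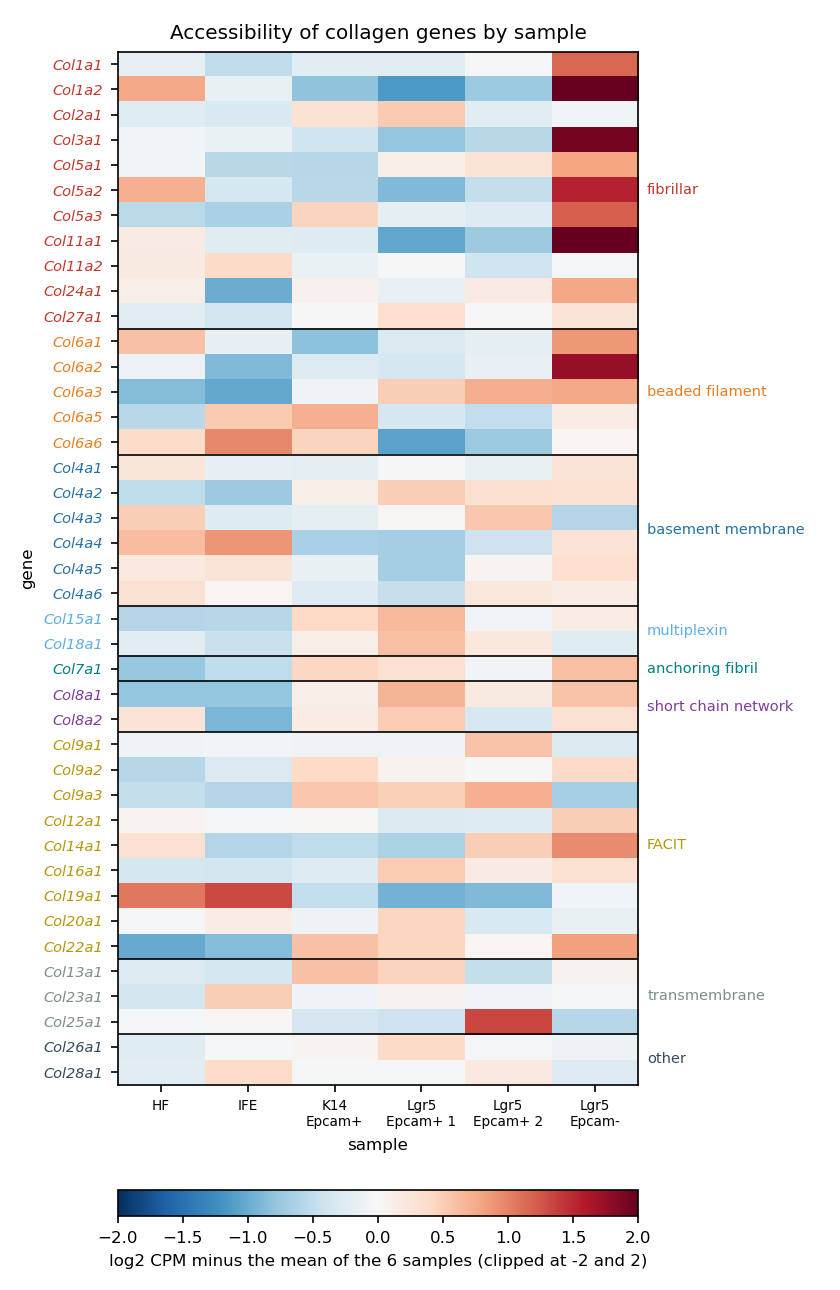
Log2 scaled CPM of 41 collagen genes in the 6 samples, minus each gene's mean over the samples (colour, clipped at -2 and 2), ordered by collagen class. The Epcam- column is red for Col1a2, Col3a1, Col11a1, Col5a2 and Col6a2, while Col19a1 is red in HF and IFE.

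Per kb of peak, the level that can be compared between genes, the mean over the 6 samples ran from 1.96 CPM per kb (Col3a1) to 7.29 (Col18a1). The median over all peaks was 2.24 to 2.49 CPM per kb in the 6 samples. Col3a1, Col9a1 (2.02), Col11a1 (2.16) and Col4a5 (2.18) had the lowest means, and Col18a1, Col16a1 (6.39) and Col4a2 (5.87) the highest. In the Epcam- sample Col1a2, Col1a1 and Col3a1 reached 7.89, 7.76 and 5.75 CPM per kb, against 0.83 to 3.42 in the Lgr5 Epcam+ pair.

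The same Epcam+ pair was compared with HF, the normal tissue labelled alike, to see how collagen chromatin of the epithelial tumour cells differs from normal. Of 41 genes 3 were higher and 5 lower, against 7.70% higher and 3.53% lower of all genes. With total-count scaling the split was 1 and 6, with loess scaling 0 and 5, with scaling factors from chromosomes 1 to 14 it was 1 and 4, and with samples centred in 10 Mb windows 8 and 5. The median of all genes was 0.19 in this comparison, -0.10 with total-count and 0.01 with loess scaling. This comparison shares the Lgr5 Epcam+ samples with the Epcam comparison, in the opposite place.

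The lower genes were Col19a1 (-1.98 ± 0.28, edgeR adjusted p = 0.00274), Col1a2 (-1.68 ± 0.29, edgeR adjusted p = 0.00546), Col5a2 (-1.38), Col6a6 (-1.26) and Col4a4 (-1.16). The peaks in a window around Col1a2, of the size used for Col5a3, were themselves at a median of -0.56. Relative to its window Col1a2 was at -1.10. For Col6a6 the window was at -0.50 and the gene relative to it at -0.77. The windows of Col19a1, Col5a2 and Col4a4 were at 0.047, -0.11 and -0.082. Col19a1, a FACIT gene, had 62.7, 75.0, 21.4, 15.6, 16.3 and 29.1 CPM. Both normal samples were above all 4 tumour samples. The value leaves out 1 peak of excess paired-end counts and turned to 3.71 when that peak was kept. Inside the gene, the peak chr1:24511376-24512581 had 13.6, 19.6, 1.13, 1.09, 0.68 and 2.81 CPM, again high only in HF and IFE (log2 ratio -3.92 ± 0.58). Col4a4 had 47.2, 57.0, 19.6, 19.2, 23.1 and 36.7 CPM, with the Epcam- sample between the normal and the Epcam+ samples.

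The higher genes were Col6a3 (1.47 ± 0.33, edgeR adjusted p = 0.0155), Col22a1 (1.26 ± 0.37, edgeR adjusted p = 0.0483) and Col8a1 (1.23 ± 0.34, edgeR adjusted p = 0.0367). Col6a3 had 44.2, 39.6, 76.04, 112, 132 and 136 CPM, so every tumour sample was above both normal samples. The peaks in its window were at a median of 0.48, and relative to the window Col6a3 was at 1.03. For Col22a1 these values were 0.35 and 0.94, and for Col8a1 0.015 and 1.22. The call of Col6a3 was lost with loess scaling (adjusted p = 0.0597), and those of Col22a1 and Col8a1 under 5 alternatives each. Col6a6 lost its call under 4. Among the genes always reported, Col7a1 was at 0.90, Col1a1 at 0.04, Col4a1 at -0.31 and Col3a1 at -0.60, none of them called. Col7a1 passed only when samples were centred in windows (1.38, adjusted p = 0.00546). The largest other uncalled ratios were those of Col9a3 (1.07) and Col11a1 (-1.04).

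At single peaks 63 were higher and 55 lower of 683, against 9.96% and 8.31% of all peaks, and the split was 50 and 82 with total-count and 23 and 48 with loess scaling. A peak inside Col8a1 (chr16:57671371-57672402) had 0.79, 1.46, 15.2, 21.8, 14.2 and 17.95 CPM (log2 ratio 4.49 ± 0.78). It was low in both normal samples and high in all 4 tumour samples. A Col4a2 peak (chr8:11345976-11347281) was higher in the same samples, with 2.84, 1.55, 27.5, 41.0, 29.5 and 10.03 CPM (3.63 ± 0.44). In the opposite direction a Col24a1 peak (chr3:145498133-145499678) had 24.9, 2.66, 1.37, 1.42, 2.48 and 5.54 CPM (-3.68 ± 0.57), and a Col5a1 peak (chr2:27933776-27935168) had 23.3, 3.22, 1.39, 1.66, 2.38 and 5.07 CPM (-3.53 ± 0.56). These peaks were high in HF alone of the 6 samples.

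Around the collagens, the processing genes Pcolce2 (1.33) and Tll2 (-1.55) passed in opposite directions, 1 of 10 each. Itgb1, the shared beta chain of collagen-binding integrins, was higher (1.19), as 1 of 9 receptor genes with 0 lower. Ogn was lower (-1.63), as 1 of 8 proteoglycans with 0 higher. No gene of folding (0 of 18) or crosslinking (0 of 5) was called. Of 13 fibroblast and pericyte markers 0 were higher and 1 lower. Of 8 hair follicle stem cell markers 0 were higher and 3 lower (Krt15 at -2.85, Lhx2 at -2.06 and Lgr5 at -1.56), of 10 leukocyte markers 2 were higher and 0 lower (Ptprc at 1.44 and Cd68 at 1.38), and of 10 endothelial markers 2 were higher and 2 lower. The part of these cell types in the values against HF was not tested.

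For the K14 tumour the comparison with IFE sets 1 sample against 1 and has no test. A gene is named here when its log2 ratio reached 1, and 0.5 in each run used there. Both runs were used on chromosomes 1 to 14 and the paired-end run alone on 15 to X, where Col22a1 lies. By this size rule 5 of 41 genes were higher and 2 lower in K14 Epcam+, against 9.57% and 8.21% of all genes. The 5 were Col22a1 (1.45), Col9a3 (1.12), Col5a3 (1.09), Col24a1 (1.08) and Col8a2 (1.06), and the 2 were Col19a1 (-1.81) and Col4a4 (-1.54). With size factors of DESeq2 the split was 3 and 2. Col22a1 was at 0.90 with both runs summed on all chromosomes, and Col19a1 at -0.95 with the excess peak kept. At the level of peaks (log2 ratio of 2, and 1 in each run used) 52 were higher and 23 lower, against 7.54% and 5.87%. How many peaks reach this limit between the Lgr5 Epcam+ samples is not given here, for this or the other comparisons without a test. A Col23a1 peak (chr11:51493141-51494594) stood at 44.6 CPM for IFE and 2.25 for K14 Epcam+, with 8.25 in HF and 1.84 to 2.71 in the Lgr5 samples. A Col4a4 peak (chr1:82527514-82528613) had 20.4 CPM in IFE, 4.79 in HF and 0.54 to 1.13 in the tumour samples. Of the 18 folding genes 0 were higher and 3 lower by the size rule (P3h1 at -1.71, P4ha1 at -1.14 and Colgalt1 at -1.12), of 10 processing genes and of 8 proteoglycans 1 was higher and 1 lower each, and of 5 crosslinking and 9 receptor genes 0 reached the limit. Of 13 fibroblast and pericyte markers 2 were higher and 2 lower, and their part was not tested.

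The tumour to normal ratios of the 2 origins rest on different samples, and they can be set side by side. Over 41 collagen genes their Pearson correlation was 0.74 and the Spearman correlation 0.69, beside 0.67 and 0.66 over 18103 genes. These are correlations across genes, which are not independent replicates, and the collagen value is close to that of all genes. Col19a1 and Col4a4 were far below 0 in both, and Col22a1, Col6a3 (0.94 in K14), Col8a1 (0.91) and Col9a3 above 0 in both. The difference between the 2 changes was called for 0 collagen genes and for 0 of all 18103 (edgeR quasi-likelihood test; 1106 had an unadjusted p under 0.05, and DESeq2's Wald test called 1). Its largest value below 0 was at Col24a1 (-1.18 ± 0.47) and above 0 at Col25a1 (1.11 ± 0.88).

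**Figure D5:**
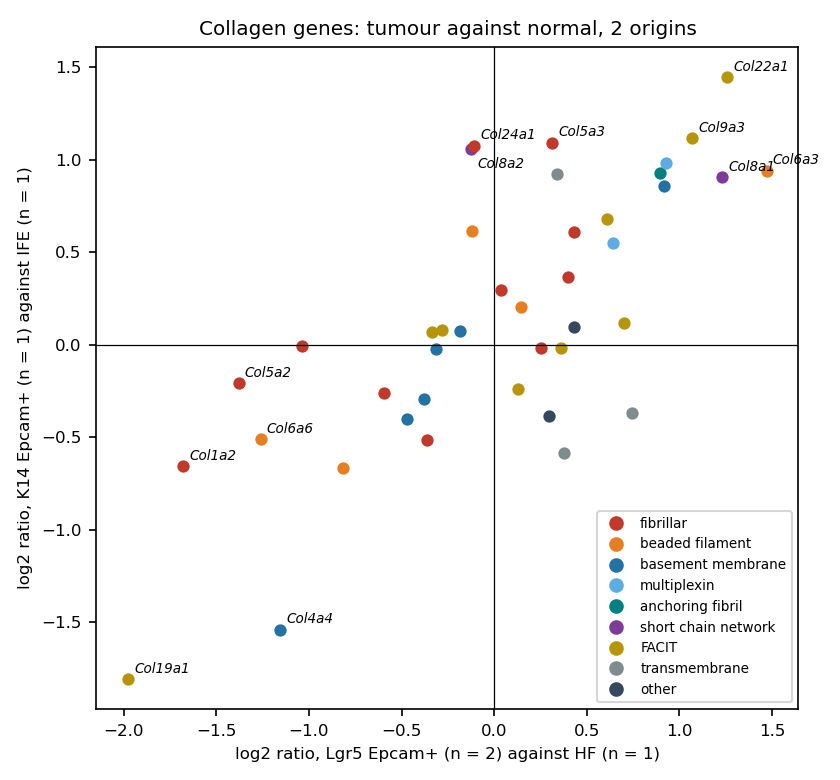
Log2 ratio of tumour to normal for 41 collagen genes, with Lgr5 Epcam+ (n = 2) against HF (n = 1) on the horizontal axis and K14 Epcam+ against IFE (1 sample each) on the vertical axis, coloured by class; genes called in either comparison are named. Col19a1 and Col4a4 lie far down to the left, Col22a1 far up to the right, and Col1a2 at -1.68 and -0.66.

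Directly compared, Lgr5 Epcam+ and K14 Epcam+ cells gave 0 of 41 collagen genes higher and 0 lower, against 0% and 0.0166% of all genes (edgeR quasi-likelihood test). Of all genes 3 were called and 743 had an unadjusted p under 0.05, and the DESeq2 Wald test called 14. The largest collagen ratios were those of Col6a6 (-1.35 ± 0.35), Col6a5 (-1.13 ± 0.28) and Col25a1 (1.05 ± 0.59). Col6a5 and Col6a6 are type VI chains that lie 27.8 kb apart on chromosome 9. Col6a5 had 64.2 CPM in K14 Epcam+ against 30.8 and 27.9 in the pair, and 55.8 in IFE against 26.5 in HF, and Col6a6 had 21.8 against 7.63 and 9.56, and 31.1 against 20.6. For both genes the interfollicular sample was the higher of each pair of tissues. At single peaks 0 of 683 were called, against 0.00226% higher and 0.0113% lower.

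Between the normal tissues (1 sample each, no test) 3 genes were higher in HF by the size rule, Col8a2 (1.19), Col24a1 (1.10) and Col5a2 (1.06), and 1 lower, Col6a5 (-1.07), against 1.82% and 3.15% of all genes. The split was 5 and 0 with total-count and with loess scaling, and 2 and 0 with samples centred in windows. Col1a2 was at 0.90 and did not reach the limit. Within the Lgr5 Epcam+ pair the same rule was met by 2.61% of all genes in 1 direction and 2.46% in the other. The rule was thus met about as often inside 1 group as between the tissues. The genes named here are therefore not set apart from the spread between samples of a group. Of the peaks 17 were higher in HF and 4 lower, against 1.77% and 0.707%. Among those of above-median level the largest ratios were at the Col24a1 peak given above (3.20) and a Col14a1 peak (chr15:55464648-55466170) with 18.4, 1.98, 1.78, 2.65, 3.80 and 18.3 CPM (3.16), high in HF and the Epcam- sample.

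Against HF, Lgr5 Epcam- cells (1 sample each, no test) gave 10 genes higher and 2 lower by the size rule, against 10.9% and 7.92% of all genes. With samples centred in windows the split was 12 and 0. The comparison shares its samples with the 2 tested comparisons above. The higher genes were Col3a1 (1.97), Col11a1 (1.95), Col6a2 (1.86), Col22a1 (1.82), Col5a3 (1.72), Col6a3 (1.62), Col7a1 (1.37), Col8a1 (1.36), Col1a2 (1.35) and Col1a1 (1.31). Col5a2 and Col6a1, higher than in Epcam+ cells, were at 0.83 and 0.28 against HF. With peaks limited to 10 kb around the gene, Col6a2 was at 0.49. The lower genes were Col19a1 (-1.11, or 3.70 with the excess peak kept) and Col4a3 (-1.08). Of the peaks 88 were higher and 35 lower, against 7.17% and 6.91%. Crosslinking genes gave 4 higher of 5 with 0 lower, led by Lox (2.67), Loxl2 (1.79) and Loxl1 (1.49). Folding genes gave 4 higher and 1 lower of 18, processing genes 3 and 0 of 10, receptors 2 and 0 of 9 and proteoglycans 3 and 0 of 8. Of 13 fibroblast and pericyte markers 7 were higher and 1 lower, and their part was not tested.

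Depth and runs bear on every value above. Every sample was sequenced in both layouts, single-end and paired-end. Summed counts in peaks ran from 32086654 (HF) to 62941406 (Lgr5 Epcam+ 1). Counts in peaks were 21.3% to 51.1% of all counts over the 12 runs. In the single-end and paired-end run they were 21.3% and 27.5% for HF, 43.7% and 51.1% for Lgr5 Epcam+ 1 and 38.6% and 45.7% for Lgr5 Epcam+ 2. The level below which 5% of peaks lay was 1.151 CPM per kb in HF and 0.55 and 0.68 in the pair. The collagen genes called lower in the pair than in HF were at 0.83 to 1.78 CPM per kb in the pair and 2.58 to 4.29 in HF. The part of this difference in weak signal in those calls was not tested. The single-end to paired-end ratio on chromosomes 15 to X was 0.56 in K14 Epcam+ and 0.93 to 1.02 in the others, and paired-end counts alone were used there, which touches Col2a1, Col14a1, Col22a1, Col8a1, Col11a2, Col4a5 and Col4a6. Epcam itself was at 40.0 CPM in the Epcam- sample and 189.8 to 205.6 in the Epcam+ tumour samples, as labelled.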

How the data were processed

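The deposited files hold raw counts per peak, made by the authors for 1 shared list of 177240 peaks in 12 runs of 6 samples, with counts outside peaks listed apart. Per the submitters' processing notes, Bowtie2, HOMER, bedtools and HTSeq were used on mm10; versions, read filters and peak calling settings were not given in the sources used here. Both runs of a sample were summed on chromosomes 1 to 14 and paired-end counts alone used on 15 to X. Peaks with paired-end totals above 3 times the single-end total were dropped (80, of which 1 collagen peak). Counts were summed per nearest gene within 50 kb. TMM factors came from paired-end counts. edgeR 4.0.16 (limma 3.58.1, R 4.3.3) was used with filterByExpr (minimum count 10), robust quasi-likelihood estimation on the 6 samples and Benjamini-Hochberg adjustment at 0.05. The biological coefficient of variation was 0.227 for genes and 0.331 for peaks. Comparisons of 1 sample with 1 used the size rule of the text (prior count 2). On counts simulated for the Epcam comparison over 18103 genes, 82% of 100 genes changed by a log2 of 2 and 13% of 100 changed by 1 were recovered, with 4 false calls. The simulation gave all samples the same spread. It therefore cannot show how many false calls arise if the single samples vary more than the Lgr5 Epcam+ pair. Named are, per comparison, called members, up to 2 uncalled with the largest ratio, and Col1a1, Col1a2, Col3a1, Col4a1, Col6a3 and Col7a1; up to 6 called peaks per direction of above-median level, at most 2 per gene; start-site peaks and the remaining members were added for description. The members and lists were chosen with earlier results of these data known. Promoters and gene spans are RefSeq on GRCm38.p6; Fkbp10 and Tyr of the lists were not matched. The marker lists for hair follicle stem cells gave 0 higher and 1 lower of 8 in Epcam- against Epcam+ cells, epidermal differentiation 0 and 2 of 8, and melanocyte and Schwann cells 0 and 0 of 5. Alternatives were total-count, DESeq2 1.42.0 and loess scaling, factors from chromosomes 1 to 14, centring in 10 Mb windows, no count filter, paired-end counts alone, both runs on all chromosomes, no dropped peaks, a 10 kb limit, DESeq2's Wald test, larger size limits and leaving out either Lgr5 Epcam+ sample. One allele of the tumour model is not reported here.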

Additional observations from a re-analysis of the deposited data

Results flagged for a closer look

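The peak left out of Col19a1 (chr1:24612392-24613443) held signal that the comparisons do not use. Its paired-end counts were 56020 and 52971 in the Lgr5 Epcam+ samples and 47182 in Lgr5 Epcam-, above the 739 of HF and 2461 of IFE, while K14 Epcam+ had 2064. The single-end counts were low throughout, at 208 for HF, 293 for IFE, 378 for K14 Epcam+, 735 and 738 for the Lgr5 Epcam+ pair and 723 for Lgr5 Epcam-. Over the 6 samples the paired-end total was 161437 and the single-end total 3075. The cause was not tested.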

How the results depend on the processing

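Among count results, 111 of 131 alternatives stayed within 1.5 times the main count, and 733 of 779 for single genes were classed as the same. For comparisons of 1 sample with 1 that class does not mean that the call was kept. Centred in windows, Col5a2 (0.849) and Col6a5 (-0.897) in HF against IFE fell short of the limit of the size rule. So did Col4a3 (-0.888) and Col19a1 (-0.923) in Lgr5 Epcam- against HF and Col9a3 (0.942) in K14 Epcam+ against IFE. The 8 genes higher in Epcam- cells numbered 8 with total-count and loess scaling. Called collagen genes in Lgr5 Epcam+ against HF, 8 in the report, numbered 5 with loess scaling, 5 with factors from chromosomes 1 to 14, 5 with no peak dropped and 13 when centred in windows. Those of HF against IFE, 4 in the report, were 2 when centred in windows and 0 at a log2 limit of 1.5. Those of K14 Epcam+ against IFE, 7 in the report, were 11 with paired-end counts alone and 2 at a limit of 1.5, and those of Lgr5 Epcam- against HF, 12 in the report, were 6 at that limit. In Lgr5 Epcam+ against K14 Epcam+, 1 gene was called with no peak dropped, where Col19a1 takes in the pile-up. Called peaks in the Epcam comparison, 139 in the report, were 92 with loess scaling and 78 with DESeq2's test. In Lgr5 Epcam+ against HF, 118 became 71 with loess scaling. In HF against IFE, 21 became 33 with paired-end counts alone and 3 at a limit of 3. At that limit 123 became 26 in Lgr5 Epcam- against HF and 75 became 19 in K14 Epcam+ against IFE. In Lgr5 Epcam+ against K14 Epcam+, 0 became 1 with total-count scaling, 1 with no peak dropped and 1 with DESeq2's test. Signs turned for uncalled values near 0: Col1a1 in Lgr5 Epcam+ against HF (-0.25 with total-count scaling, -0.23 with loess, -0.040 within 10 kb) and against K14 Epcam+ (-0.086, -0.093 and -0.068), Col4a1 against K14 Epcam+ (-0.053 with total-count and -0.087 with loess scaling), Col1a2 against K14 Epcam+ (0.0048 with paired-end counts alone) and the difference of the tumour changes of Col7a1 (0.069 with DESeq2 size factors, 0.014 centred in windows). Col19a1 turned to 3.71 in Lgr5 Epcam+ against HF and 3.70 in Lgr5 Epcam- against HF with the pile-up peak kept. Where no cause is named, it was not tested. Both Lgr5 Epcam+ samples were needed for a test, so leaving 1 out gives values alone. No paired analysis was possible because only 1 group has more than 1 sample. In the simulation most log2 changes of 1 were missed, so an uncalled gene is not shown to be unchanged.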
